A study of Mus musculus with 6 samples.

Results

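The replication-dependent histone genes of the mouse were examined in 4 ATAC-seq peak sets and 2 Tfcp2l1 ChIP-seq peak sets from mouse embryonic fibroblasts (MEFs). The genes were chosen by name alone, as the protein-coding genes of the mm10 annotation (GENCODE vM21) whose symbol begins with Hist1h, Hist2h, Hist3h or Hist4h, and 67 of 21938 protein-coding genes met this rule. They comprised 6 genes for the linker histone H1, 18 for H2A, 18 for H2B, 12 for H3 and 13 for H4. Of these, 54 lay in the Hist1 locus on chromosome 13, 10 in Hist2 on chromosome 3, 2 in Hist3 on chromosome 11 and 1, Hist4h4, on chromosome 6. Hist1 was treated as a proximal part with 23 genes and a distal part with 31, because the parts are more than 500 kb apart.

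All cells were C57BL/6J MEFs, and the ATAC-seq cells came from E13.5 embryos. The ATAC-seq conditions were Hyp-Imm (immortalized, 3% oxygen), Norm-Sen (senescent, 20% oxygen), Hyp-Pro (passage 1, 3% oxygen) and Norm-Pro (passage 1, 20% oxygen). ChIP with an anti-Tfcp2l1 antibody was done in Hyp-Imm and in Norm-Sen cells only. Each condition had 1 library per assay, so no spread between replicates can be given, no test between conditions was made, and every interval below covers counting error only.

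The conditions given by the labels of the 4 ATAC-seq libraries differ from those in the names of their files. The library labelled Hyp-Imm has a file named for Norm-Sen, that labelled Norm-Sen one named for Hyp-Pro, that labelled Hyp-Pro one named for Norm-Pro and that labelled Norm-Pro one named for Hyp-Imm. Conditions are those of the labels throughout, and where counts of open histone genes are set against each other between conditions the reading by file name is given as well. The names and labels of the ChIP libraries did not differ.

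Depth was read from the peak files themselves. The fold and p-value that MACS2 writes for a peak together fix the number of reads piled up at its summit and the local background, and whole reads were recovered for 100% of the peaks examined in each library. The genome-wide background was 0.445 reads in Hyp-Imm and 1.77 in Norm-Sen, and 0.956 in Hyp-Pro and 1.24 in Norm-Pro, so the Hyp-Imm ATAC-seq library had 25.2% of the background of the deepest library. These files held 37770 peaks for Hyp-Imm, 61408 for Norm-Sen, 47523 for Hyp-Pro and 69122 for Norm-Pro. Of 12 fibroblast marker genes, 4, 7, 7 and 5 had a peak within 1 kb in Hyp-Imm, Norm-Sen, Hyp-Pro and Norm-Pro (33.3%, 58.3%, 58.3% and 41.7%), against 30.9%, 47.6%, 44.2% and 49.3% of all protein-coding genes, with Fn1, Vim, Col1a2 and Twist1 in all 4 libraries. Among the markers of other cell types, endothelial Kdr and neuronal Map2 also had a peak in all 4 libraries. Of 5 epithelial markers, 1, 1, 2 and 2 had a peak in the same order of libraries, and of 4 blood markers 2, 1, 0 and 0, namely Spi1 and Cd68 in Hyp-Imm and Spi1 in Norm-Sen. Peaks near a start therefore did not set the fibroblast list clearly apart from other genes, and the part of other cells in the results was not tested.

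Replication-dependent histone genes supply the histones that package newly copied DNA. They are short, lack introns, and are transcribed mainly in S phase, when cyclin E and Cdk2 act on the coactivator Npat in the histone locus body. Their mRNAs end in a stem-loop bound by Slbp in place of a poly(A) tail. H2A, H2B, H3 and H4 form the nucleosome core, and H1 binds the linker DNA. The promoters carry class-specific elements: a GGTCCG core bound by HiNF-P (gene Hinfp) in H4 genes, the octamer ATTTGCAT bound by Oct-1 (gene Pou2f1) in H2B genes, and the AC box AAACACA in H1 genes, beside CCAAT and TATA boxes. Mouse Hist1 also holds many tRNA genes, which are transcribed by RNA polymerase III from elements inside the gene.

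The promoter sequences below show these elements at 6 members that the results return to. Each runs 5′ to 3′ from 250 bases before to 50 bases after the start given by RefSeq, in GRCm38.p6, and RefSeq sequences of this kind matched 62 of the 67 members. Capitals mark, on either strand, the CCAAT box, the TATA box TATAAA, the octamer ATTTGCAT, the GGTCCG core, the AC box AAACACA, the E2F sites TTTGGCGC and TTTCGCGC, and the GC box GGGCGG. Hist1h1c and Hist1h1e are the members with a peak in all 4 libraries, Hist1h4a and Hist1h4c are H4 genes with 3 and 2, Hist1h2bf is an H2B gene that shares its promoter with the H2A gene Hist1h2ad, and Hist1h2ac carries the octamer.
Hist1h1c (chr13:23738557-23738856, plus strand): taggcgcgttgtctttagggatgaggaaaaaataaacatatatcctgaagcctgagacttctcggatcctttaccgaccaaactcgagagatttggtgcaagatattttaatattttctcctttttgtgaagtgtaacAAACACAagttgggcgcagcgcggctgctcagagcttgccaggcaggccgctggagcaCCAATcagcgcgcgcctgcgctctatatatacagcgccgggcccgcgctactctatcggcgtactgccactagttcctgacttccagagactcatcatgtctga
Hist1h1e (chr13:23622509-23622808, minus strand): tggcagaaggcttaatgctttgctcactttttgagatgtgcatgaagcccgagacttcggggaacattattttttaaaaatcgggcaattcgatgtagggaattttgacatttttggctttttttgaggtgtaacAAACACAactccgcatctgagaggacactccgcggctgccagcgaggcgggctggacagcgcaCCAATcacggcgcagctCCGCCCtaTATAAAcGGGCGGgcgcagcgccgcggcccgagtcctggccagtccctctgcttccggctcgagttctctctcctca
Hist1h4a (chr13:23761200-23761499, minus strand): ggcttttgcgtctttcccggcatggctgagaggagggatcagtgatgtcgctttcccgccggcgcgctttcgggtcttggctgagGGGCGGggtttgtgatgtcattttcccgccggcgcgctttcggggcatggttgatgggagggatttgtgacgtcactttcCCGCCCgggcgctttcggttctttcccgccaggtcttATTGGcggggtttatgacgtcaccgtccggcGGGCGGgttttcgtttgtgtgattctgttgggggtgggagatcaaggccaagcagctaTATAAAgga
Hist1h4c (chr13:23698409-23698708, minus strand): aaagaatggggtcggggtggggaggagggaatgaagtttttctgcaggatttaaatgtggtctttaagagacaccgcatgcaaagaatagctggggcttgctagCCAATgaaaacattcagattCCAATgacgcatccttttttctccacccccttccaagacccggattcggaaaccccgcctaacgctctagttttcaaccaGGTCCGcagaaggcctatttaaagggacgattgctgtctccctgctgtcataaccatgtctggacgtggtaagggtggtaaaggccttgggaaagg
Hist1h2bf (chr13:23574158-23574457, minus strand): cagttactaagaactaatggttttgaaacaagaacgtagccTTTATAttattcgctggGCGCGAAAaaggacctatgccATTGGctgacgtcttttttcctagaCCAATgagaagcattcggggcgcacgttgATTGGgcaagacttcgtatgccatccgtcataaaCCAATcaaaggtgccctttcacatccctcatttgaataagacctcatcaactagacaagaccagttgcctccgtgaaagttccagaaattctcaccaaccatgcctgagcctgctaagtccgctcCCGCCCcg
Hist1h2ac (chr13:23683910-23684209, minus strand): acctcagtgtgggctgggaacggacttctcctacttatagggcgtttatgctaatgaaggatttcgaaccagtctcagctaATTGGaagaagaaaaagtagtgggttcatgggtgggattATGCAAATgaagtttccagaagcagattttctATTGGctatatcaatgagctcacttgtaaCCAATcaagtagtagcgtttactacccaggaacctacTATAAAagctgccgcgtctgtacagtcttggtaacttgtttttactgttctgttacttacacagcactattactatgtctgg

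Several elements differed in frequency between the histone classes when counted over all members. In the same window around the GENCODE start, GGTCCG was present in 12 of 13 H4 genes, against 9.60% of all protein-coding genes. It was also present in 2 of 12 H3 genes and 1 of 18 H2B genes. The octamer was present in 8 of 18 H2B genes and 7 of 18 H2A genes and in no gene of another class, against 1.57% of all protein-coding genes. The AC box was found in 4 of 6 H1 genes, against 6.40% of all protein-coding genes, and also in 3 of 18 H2B, 1 of 18 H2A and 1 of 12 H3 genes. At least 2 CCAAT boxes were present in 18 of 18 H2A, 18 of 18 H2B and 9 of 12 H3 genes. They were present in 1 of 6 H1 and 1 of 13 H4 genes, against 12.7% of all protein-coding genes. The windows of head-to-head H2A and H2B genes overlap, so 1 element can count for both genes. TATAAA was held by 55.2% of histone genes and 12.6% of all protein-coding genes, and an E2F site by 13.4% and 1.02%. The GC box did not stand apart, at 41.8% of histone genes and 43% of all protein-coding genes. The median GC content of the window was 45.3% in histone genes and 55.0% over all protein-coding genes. Some motifs are short, and a match is a description of the letters only.

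Histone genes were open less often than protein-coding genes as a whole in each of the 4 ATAC-seq libraries, where open means that any base of a peak lay within 1 kb of the gene start. In Hyp-Imm, 7 of 67 histone genes were open (10.4%, exact 95% binomial interval 4.30 to 20.3%), against 30.9% of all protein-coding genes. In Norm-Sen, 23 were open (34.3%, 23.2 to 46.9%), against 47.6%. In Hyp-Pro, 19 were open (28.4%, 18.0 to 40.7%), against 44.2%. In Norm-Pro, 18 were open (26.9%, 16.8 to 39.1%), against 49.3%. Neighbouring members share peaks, since the 7, 23, 19 and 18 open genes rested on 5, 16, 14 and 14 distinct peaks, so the genes are not independent and the intervals are too narrow.

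**Figure D1:**
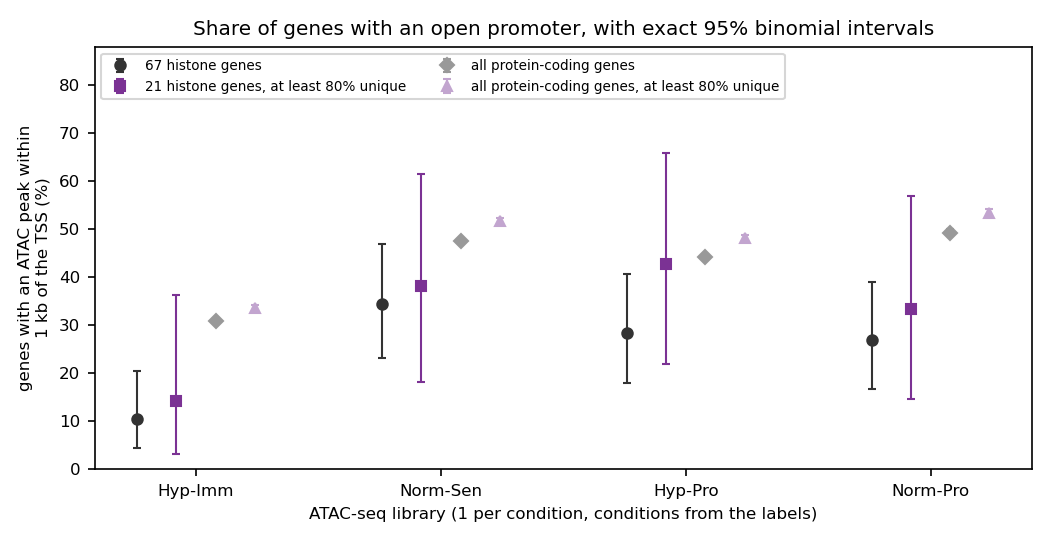
Share of genes with an ATAC peak within 1 kb of the TSS (percent, y axis) in each of the 4 libraries (x axis), for the 67 histone genes, the 21 histone genes with at least 80% unique sequence around the start, all protein-coding genes, and all protein-coding genes with at least 80% unique sequence. Points are shares and bars exact 95% binomial intervals. The histone genes sit between 10.4% and 34.3%, below the 30.9% to 49.3% of all protein-coding genes of the same library.

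Read alignment bears on these shares, because histone genes are near-copies of each other. A 49-base word, the length of the reads, was called unique when it occurs once in the genome. Within 250 bp of the start, a median of 74.5% of words were unique at histone genes and 100% at all protein-coding genes. Only 21 of 67 histone genes (31.3%) reached 80%, against 90.2% of all protein-coding genes. Among those 21, the open genes numbered 3 in Hyp-Imm (14.3%) and 8 in Norm-Sen (38.1%), and 9 in Hyp-Pro (42.9%) and 7 in Norm-Pro (33.3%), against 33.6%, 51.7%, 48.2% and 53.5% of all protein-coding genes of the same kind. The shares thus stayed below those of all protein-coding genes, but the intervals held the genome-wide share in Hyp-Imm (3.05 to 36.3%), Norm-Sen (18.1 to 61.6%) and Hyp-Pro (21.8 to 66.0%) and also in Norm-Pro (14.6 to 57.0%). Among the 46 less unique histone genes, 4, 15, 10 and 11 were open (8.70%, 32.6%, 21.7% and 23.9%), against 5.56%, 9.25%, 7.38% and 10.5% of less unique protein-coding genes. In this group the histone share was thus the higher in each library. The sets were not matched on uniqueness, since no word was unique at 4 of the 46 histone genes and at 527 of the 2140 protein-coding genes. The sources used here do not say how reads aligning to several places were handled, and the part of lost alignments in the low counts was not tested.

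The H1 genes had the most unique starts, with a class median of 100%, followed by H4 with 77.2%, H2B with 73.9%, H3 with 66.6% and H2A with 66.1%. Hist1h2bq, Hist1h2ao, Hist1h2ap and Hist1h2br, neighbours in the proximal part of Hist1, had no unique word at all, and no peak. Hist1h4m and Hist1h4n beside them had 9.78% and 7.98%, and no peak either. The 22 members without a peak had a median of 61.0%, and the 45 with a peak in any library 77.2%. At members with few unique words, a missing peak cannot be told apart from unplaced reads.

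**Figure D2:**
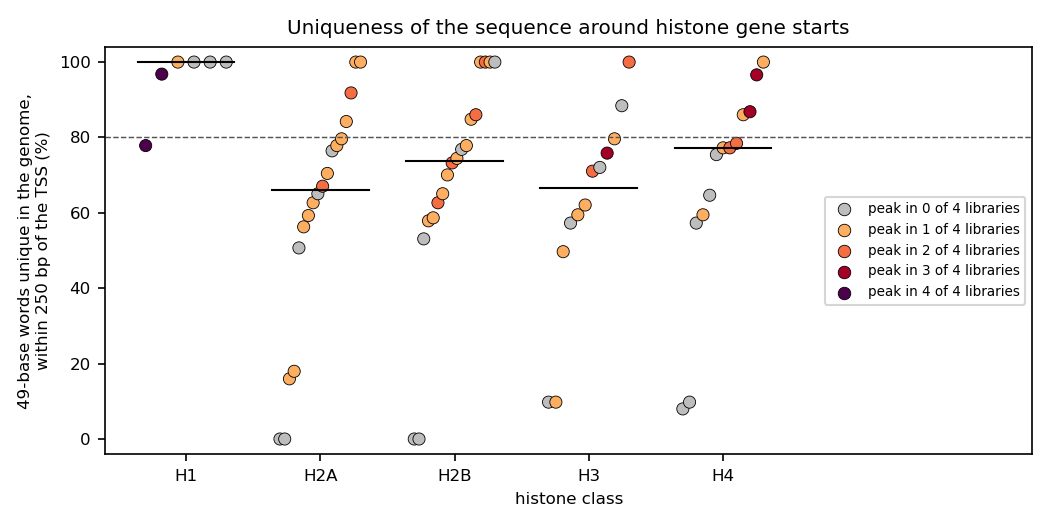
Percent of 49-base words within 250 bp of the TSS that are unique in the genome (y axis) for each histone gene (points, by class on the x axis), coloured by the number of ATAC-seq libraries with a peak within 1 kb. Horizontal lines are class medians and the dashed line marks 80%. Of the 6 H1 genes, 5 are above 80%, whereas 46 of all 67 members fall below it.

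Peaks at histone genes rarely recurred. Over the 4 libraries, 30 members were open in exactly 1 (44.8%, 32.6 to 57.4%), against 12.5% of all protein-coding genes, and 2 were open in all 4 (2.99%, 0.364 to 10.4%), against 23.2%. A further 10 were open in 2 libraries and 3 in 3 libraries. By contrast, 22 members were open in none (32.8%, 21.8 to 45.4%), against 38.6% of all protein-coding genes, and 45 in at least 1 (67.2%), against 61.4%. With all peaks counted, the share of members ever open was therefore close to that of all protein-coding genes, while the share open in every library was lower. The closeness depended on the peaks counted. At a −log10 q of at least 5, 79.1% of members were open in none, against 57.7% of all protein-coding genes. With equal peak numbers per library the shares were 49.3% and 43.2%.

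The peaks of members had lower median values and fewer summits near the start than those of all open genes. The median −log10 q of the strongest peak was 3.33 in Hyp-Imm and 4.02 in Norm-Sen, and 3.92 in Hyp-Pro and 4.66 in Norm-Pro, against 4.08, 6.05, 5.85 and 6.47 over all protein-coding genes with a peak. A −log10 q of 5 was reached by 28.6%, 30.4%, 26.3% and 22.2% of the open members, and by 33.4%, 61.7%, 61.1% and 65.2% of all open genes. The summits at members held 6 to 13 reads in Hyp-Imm, 11 to 18 in Norm-Sen, 7 to 15 in Hyp-Pro and 8 to 16 in Norm-Pro. The summits of these strongest peaks lay within 250 bp of the start at 3 of 7 open genes in Hyp-Imm, 15 of 23 in Norm-Sen, 11 of 19 in Hyp-Pro and 9 of 18 in Norm-Pro, against 68.7%, 70.8%, 69.6% and 72.5% over all open genes.

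**Figure D3:**
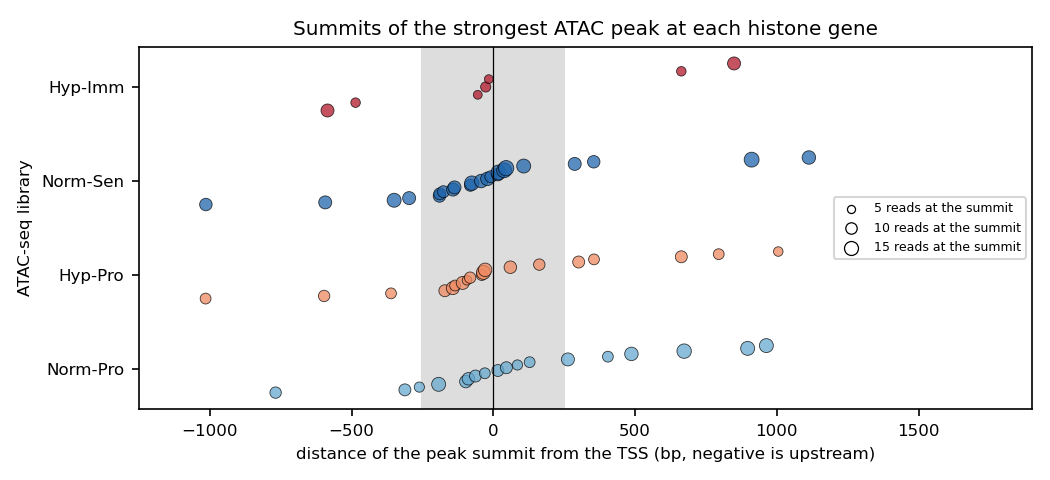
Distance of the summit of the strongest ATAC peak from the TSS of each open histone gene (x axis, bp, negative is upstream) in the 4 libraries (y axis), with 1 point per gene and a point area that grows with the reads at the summit. The grey band marks 250 bp on either side. It holds 3 of 7 summits in Hyp-Imm, 15 of 23 in Norm-Sen, 11 of 19 in Hyp-Pro and 9 of 18 in Norm-Pro.

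The linker histone genes held both members with a peak in every library. Hist1h1e, a somatic H1 gene, had summits of 13 reads in Hyp-Imm (exact Poisson 95% interval 6.92 to 22.2) and 18 in Norm-Sen (10.7 to 28.4), and 14 in Hyp-Pro (7.65 to 23.5) and 11 in Norm-Pro (5.49 to 19.7). Its −log10 q was 10.2 in Hyp-Imm and 8.73 in Norm-Sen, and 8.70 in Hyp-Pro and 3.49 in Norm-Pro. The single Hyp-Imm peak was not at the promoter, however, since its summit lay 849 bp downstream of the start, whereas the other libraries had summits 45 bp downstream in Norm-Sen and at -29 bp in Hyp-Pro and -63 bp in Norm-Pro (negative is upstream). Hyp-Pro had a weaker peak downstream as well, with 10 reads, a −log10 q of 4.65 and a summit at 837 bp. Relative to the genome-wide background of its library, the summit held 29.2 times the reads in Hyp-Imm and 10.2 in Norm-Sen. In Hyp-Pro it held 14.6 times and in Norm-Pro 8.88 times. The ratio depends on depth, since the background was 0.445 reads in Hyp-Imm and 1.77 in Norm-Sen. Even the Hyp-Imm summits of 6 reads at Hist1h1a and Hist1h4c had a higher ratio than Hist1h1e in Norm-Sen. The ratios therefore do not show how open Hist1h1e was in 1 condition against another.

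Hist1h1c, another somatic H1 gene, had summits of 8 reads in Hyp-Imm (3.45 to 15.8) and 17 in Norm-Sen (9.90 to 27.2), and 15 in Hyp-Pro (8.40 to 24.7) and 15 in Norm-Pro (8.40 to 24.7). The −log10 q was 4.29 in Hyp-Imm and 6.08 in Norm-Sen, and 7.22 in Hyp-Pro and 7.32 in Norm-Pro. The summit of this strongest peak was at -27 bp in Hyp-Imm, 38 bp in Norm-Sen and -35 bp in Hyp-Pro, but 897 bp downstream in Norm-Pro. Norm-Pro also had a peak at the start, with 14 reads, a −log10 q of 6.02 and a summit at 41 bp, and Hyp-Pro also had one 903 bp downstream, with 11 reads. A peak at the start was thus present in all 4 libraries. The printed promoters of both genes carry the AC box and a CCAAT box.

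The remaining H1 genes were open once or not at all. Hist1h1a had a peak in Hyp-Imm alone, with 6 reads (2.20 to 13.1), a −log10 q of 2.63 and a summit at -55 bp. Hist1h1b, Hist1h1d and the testis-specific Hist1h1t had none in any library, although 100% of the words around each start were unique. The annotated start of Hist1h1d lies 1828 bp from its start codon.

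Among core histone genes of H2A, H2B and H3, a peak in exactly 1 library was the most frequent pattern, with 11, 9 and 5 genes, whereas 4 H4 genes had it and 5 had no peak. In H4, Hist1h4a and Hist2h4 were open in the 3 libraries other than Hyp-Imm. Hist1h4a had 14 reads in Norm-Sen, 9 reads in Hyp-Pro and 15 reads in Norm-Pro, with a −log10 q of 3.40, 2.54 and 6.23. Hist2h4 had 17, 11 and 13 reads and a −log10 q of 5.89, 3.92 and 4.64, with the summit of the strongest Norm-Sen peak 911 bp downstream and the Hyp-Pro and Norm-Pro summits 301 and 263 bp downstream. A weaker Norm-Sen peak of Hist2h4 lay nearer to the start, at 162 bp, with 11 reads and a −log10 q of 2.41. Hist1h4c was the only core histone gene with a peak in both Hyp-Imm and Norm-Sen, at 6 reads (2.20 to 13.1) in Hyp-Imm and 17 (9.90 to 27.2) in Norm-Sen. Its summits lay at -16 bp in Hyp-Imm and 18 bp in Norm-Sen, and its printed promoter holds the GGTCCG core, which that of Hist1h4a lacks.

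Hist1h4h had peaks in Hyp-Pro (11 reads, −log10 q 4.68) and Norm-Pro (16 reads, 6.53), with summits 663 and 673 bp downstream of its start. Hist1h4f was open in Norm-Pro only, Hist1h4d in Norm-Sen only, and Hist1h4k and Hist4h4 in Hyp-Pro only, at 11, 12, 10 and 10 reads. Hist1h4j, Hist1h4m, Hist1h4n, Hist1h4i and Hist1h4b had no peak.

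Among H3 genes, Hist1h3a was open in Norm-Sen, Hyp-Pro and Norm-Pro, and its strongest peaks were those of Hist1h4a, with summits 1113 bp, 795 bp and 963 bp downstream of the Hist1h3a start in the same order. Norm-Sen also had a peak at the Hist1h3a start itself, with 13 reads, a −log10 q of 2.89 and a summit at -77 bp. Hist1h3g and Hist1h3f had peaks in Norm-Sen and Hyp-Pro. At Hist1h3g, the Norm-Sen peak held 12 reads and the Hyp-Pro peak 11, with summits at -190 and -171 bp. Hist1h3e was open in Norm-Sen (14 reads, −log10 q 5.26, summit at -21 bp), Hist1h3h and Hist1h3i in Norm-Pro, Hist2h3b in Hyp-Pro, and Hist2h3c2 in Hyp-Imm. Hist1h3d, Hist1h3c, Hist1h3b and Hist2h3c1, all H3 genes as well, had no peak.

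The H2A and H2B genes are mostly arranged head to head. There were 13 divergent pairs of members, 12 of them of H2A with H2B, with starts 176 to 660 bp apart (median 268 bp), so a peak within 1 kb counts for both members of a pair. An open member was present in 9 pairs, and in 6 a peak overlapped the stretch between the starts in at least 1 library, in no pair in Hyp-Imm and 3 in Norm-Sen, and 2 in Hyp-Pro and 2 in Norm-Pro.

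The pair Hist1h2ac and Hist1h2bc had the strongest peak between its starts, in Hyp-Pro only, at 13 reads (6.92 to 22.2) and a −log10 q of 7.43. Hist1h2bf and Hist1h2ad were open in Norm-Sen (11 reads, −log10 q 3.33) and in Norm-Pro (12 reads, 4.82). Hist1h2ae and Hist1h2bg were open in Hyp-Pro (9 reads, 3.84) and in Norm-Pro (8 reads, 2.39). The remaining open pairs had a peak in 1 library, except Hist1h2bh with the H3 gene Hist1h3f, whose Norm-Sen and Hyp-Pro peaks held 12 and 9 reads and lay 354 and 355 bp inside Hist1h3f. Hist1h2an and Hist1h2bp were open in Norm-Sen at 15 reads (−log10 q 6.12), Hist1h2bl and Hist1h2ai in Norm-Sen at 13 reads (4.76), and Hist1h2ak and Hist1h2bn in Norm-Pro at 11 reads (4.69).

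Hist1h2ab, which is not in such a pair, was open in Hyp-Pro at 12 reads (−log10 q 6.63, 60 bp downstream). Hist3h2a was open in Norm-Pro at 14 reads (4.95, 487 bp downstream). Its start is also that of Trim17 on the annotation, so the peak belongs to both genes. Hist2h2aa2 in Hyp-Imm and Hist2h2aa1 in Norm-Sen, near-identical H2A genes of Hist2 with 16.0% and 18.0% unique words, had 7 and 13 reads, and reads cannot be placed with certainty between such copies.

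Hist1h2be is a special case of annotation. Its record starts 35168 bp from its start codon, and the Hyp-Imm and Hyp-Pro peaks counted for it, with summits at -585 and -597 bp, lie downstream of the Hist1h1e start, within 1 kb of it, so both are counted for Hist1h1e as well. With the start codon in place of the annotated start, a choice made after seeing the data, Hyp-Imm had 6 open histone genes, Norm-Sen 23, Hyp-Pro 18 and Norm-Pro 18. Hist1h2ba and Hist1h2aa, a testis-expressed pair, were open in Norm-Sen only, through a peak of 13 reads with a −log10 q of 2.95. H2A and H2B genes without a peak were Hist3h2ba, Hist1h2bq, Hist1h2ao, Hist1h2ap, Hist1h2br, Hist1h2ah, Hist1h2bk, Hist1h2af, Hist2h2ac and Hist2h2be.

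**Figure D4:**
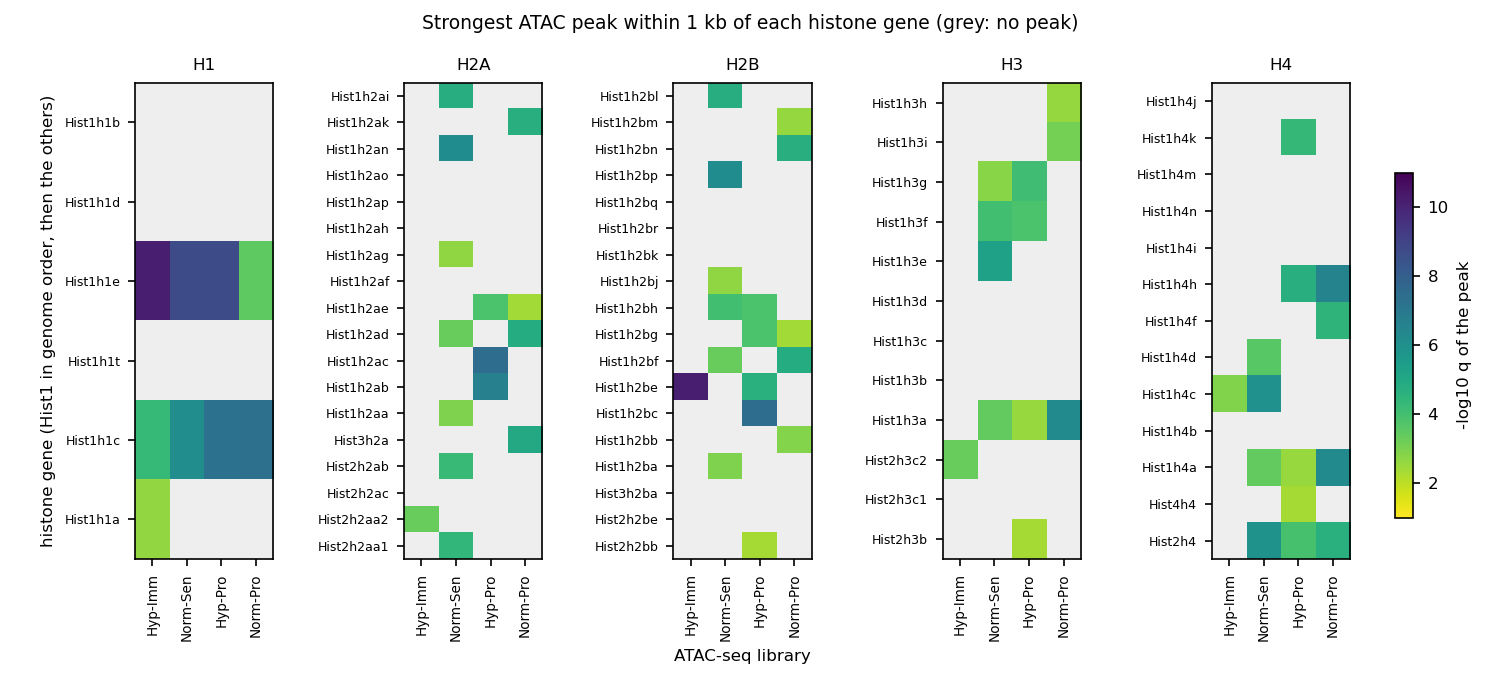
−log10 q of the strongest ATAC peak within 1 kb of each of the 67 histone genes (rows, by class) in the 4 libraries (columns), with grey where there was no peak. Hist1h1e and Hist1h1c fill all 4 columns, and 22 genes are grey throughout. Most of the others have a peak in 1 column.

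Classes could not be separated by their counts. In Hyp-Imm, 3 of 6 H1 genes were open (interval 11.8 to 88.2%), beside 1 of 18 H2A, 1 of 18 H2B, 1 of 12 H3 and 1 of 13 H4 genes. In Norm-Sen the counts were 2 of 6 H1, 7 of 18 H2A, 6 of 18 H2B, 4 of 12 H3 and 4 of 13 H4 genes, which is 30.8% to 38.9% of each class. In Hyp-Pro they were 2, 3, 5, 4 and 5, and in Norm-Pro 2, 4, 5, 3 and 4 of the same classes. The intervals of all classes overlapped within every library. By position, in the distal part of Hist1, 5, 14, 14 and 11 of 31 genes were open in Hyp-Imm, Norm-Sen, Hyp-Pro and Norm-Pro (16.1%, 45.2%, 45.2% and 35.5%). In the proximal part 0, 6, 1 and 5 of 23 were open (0%, 26.1%, 4.35% and 21.7%). Over all protein-coding genes the shares were 30.9%, 47.6%, 44.2% and 49.3%, so the distal part was near them in Norm-Sen and Hyp-Pro. The starts were less unique in the proximal part, with a median of 59.3% of words and 6 genes under 10%, against 78.4% and no such gene in the distal part. The part of unplaced reads in the difference between the 2 parts was not tested. In Hyp-Imm the 0 of 23 allows a share of up to 14.8% by the exact interval.

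Between conditions, Hyp-Imm had fewer open histone genes than Norm-Sen, 7 against 23. Only 3 genes, Hist1h1e, Hist1h4c and Hist1h1c, were open in both, which is 42.9% of the Hyp-Imm genes and 13% of the Norm-Sen genes. Over all protein-coding genes the shared genes were 86.3% of those open in Hyp-Imm and 56.0% of those open in Norm-Sen. The Hyp-Imm minus Norm-Sen difference was -23.9 percentage points for histone genes and -16.7 for all protein-coding genes. By the file names this direction turns, with 18 histone genes in the library named for Hyp-Imm and 7 in that named for Norm-Sen. The library with 7 has the lowest background of the 4, and depth and condition cannot be told apart.

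Against early passage at the same oxygen level, Hyp-Imm had 7 open histone genes and Hyp-Pro 19, with 3 in both (42.9% and 15.8% of each). Norm-Sen had 23 and Norm-Pro 18, with 7 in both (30.4% and 38.9%). Between the passage 1 libraries, Hyp-Pro had 19 and Norm-Pro 18, with 8 in both (42.1% and 44.4%). By the file names, Hyp-Imm had 18 and Hyp-Pro 23, Norm-Sen 7 and Norm-Pro 19, and Hyp-Pro 23 and Norm-Pro 19, so the direction turns for Norm-Sen against Norm-Pro. Over all protein-coding genes the corresponding shares were 83.6% and 58.3% for Hyp-Imm with Hyp-Pro, 84.9% and 81.9% for Norm-Sen with Norm-Pro, and 86.5% and 77.6% for Hyp-Pro with Norm-Pro. Libraries with similar counts thus had mostly different histone genes open. By the labels, Hyp-Imm minus Hyp-Pro was -17.9 percentage points for histone genes and -13.3 for all protein-coding genes. Norm-Sen minus Norm-Pro was 7.46 and -1.71 points for the same sets. When each library was limited to its 37770 strongest peaks, 7, 18, 14 and 12 histone genes were open in Hyp-Imm, Norm-Sen, Hyp-Pro and Norm-Pro. These are 10.4%, 26.9%, 20.9% and 17.9%, against 30.9%, 41.1%, 40.7% and 43.6% of all protein-coding genes, which were also lowest in Hyp-Imm. By the file names the same libraries are Norm-Sen, Hyp-Pro, Norm-Pro and Hyp-Imm.

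The genes that control histone transcription and mRNA processing were open more often than the histone genes themselves, with a share above that of all protein-coding genes in each library. Of 20 such regulators, 14 were open in Hyp-Imm and 18 in Norm-Sen, and 16 in Hyp-Pro and 17 in Norm-Pro, and 13 in all 4 libraries. Npat, the coactivator of the histone locus body, had 7 reads in Hyp-Imm and 32 in Norm-Sen, and 22 in Hyp-Pro and 25 in Norm-Pro, with its lowest −log10 q, 3.47, in Hyp-Imm and its highest, 19.9, in Norm-Sen. Casp8ap2, which encodes the histone locus body protein FLASH, had 8, 30, 18 and 19 reads, and Slbp, the stem-loop binding protein, 11, 26, 24 and 32. Hinfp, the H4 promoter factor, had no peak in Hyp-Imm and 32, 21 and 30 reads in Norm-Sen, Hyp-Pro and Norm-Pro. The U7 snRNP genes Lsm10 and Lsm11 had no peak in Hyp-Imm, and Lsm10 had 12, 14 and 24 reads and Lsm11 15, 19 and 16 in the other libraries. Nfyc and Zfp473 had no peak in any library.

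Histone chaperone and replication-independent histone genes also had open shares above those of all protein-coding genes, which were 30.9%, 47.6%, 44.2% and 49.3% in Hyp-Imm, Norm-Sen, Hyp-Pro and Norm-Pro. Of 8 chaperone genes, 6, 8, 7 and 8 were open in Hyp-Imm, Norm-Sen, Hyp-Pro and Norm-Pro, and 5 in all 4. Of 11 replication-independent histone genes, 5, 10, 7 and 8 were open, with H3f3a, H2afz, H2afx and H2afv in all 4 libraries. The exact intervals of these 11 held the share of all protein-coding genes in Hyp-Imm (16.7 to 76.6%), Hyp-Pro (30.8 to 89.1%) and Norm-Pro (39.0 to 94.0%). In Norm-Sen the interval lay above it (58.7 to 99.8%). H2afz, the H2A.Z gene, had 9, 34, 23 and 29 reads. H2afj, an H2A variant gene next to Hist4h4, had none in Hyp-Imm and 34, 23 and 18 in the others. The words around these starts were at least 90% unique, except at Zfp473 with 82.2%. Of the 12 other protein-coding genes inside the histone clusters, 0, 3, 2 and 4 were open. They include Hfe, Prss16 and 4 Slc17a genes, which had no peak in any library.

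The clusters, with 5 kb added on either side, span 843 kb and held 15 ATAC peaks in Hyp-Imm and 33 in Norm-Sen, and 33 in Hyp-Pro and 49 in Norm-Pro. Of these, 5, 18, 16 and 16 lay within 1 kb of a histone gene start, a window that covers 11.9% of the clusters, and 1, 1, 6 and 3 lay on a tRNA gene.

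Tfcp2l1 ChIP peaks in the clusters were all on tRNA genes. Tfcp2l1 is a transcription factor known from the self-renewal of embryonic stem cells. The clusters held 6 ChIP peaks in Hyp-Imm and 21 in Norm-Sen, and 6 of 6 and 21 of 21 overlapped a tRNA gene. Genome-wide, 20.4% of 612 peaks in Hyp-Imm and 42.0% of 393 peaks in Norm-Sen did so. The background of the ChIP library was 0.163 reads in Hyp-Imm and 0.226 in Norm-Sen. Of the cluster peaks, 5 were shared by both libraries. The summit lay inside the tRNA gene for 6 of 6 peaks in Hyp-Imm and 12 of 21 in Norm-Sen.

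Of the 67 histone genes, 1, Hist1h4h, had a ChIP peak within 1 kb of its start, in Hyp-Imm and in Norm-Sen alike. Over all protein-coding genes the shares were 0.305% and 0.351%, and 1 gene does not set the histone share apart from them. The peak covered the initiator-type tRNA-Met gene n-TMcat9, with a summit at -638 bp in Hyp-Imm (10 reads, fold 7.57) and -653 bp in Norm-Sen (16 reads, fold 9.18). The ATAC peaks of Hist1h4h lay on the other side of its start. Without peaks on tRNA genes, no histone gene had a ChIP peak in either library. The share of all protein-coding genes without such peaks was not counted. With shares as low as those above, 0 of 67 does not set the histone genes apart.

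Most of the ChIP peaks fell in a stretch of the proximal part of Hist1 that holds no histone gene. Between Hist1h2br and Hist1h2ah lie 202 kb with 31 tRNA genes, and 4 of the 6 Hyp-Imm peaks and 19 of the 21 Norm-Sen peaks were there. In the clusters, 34 of the 403 tRNA genes of the RefSeq annotation were present, 32 of them in the proximal part. Of these 34, 6 had a ChIP peak in Hyp-Imm (17.6%, 6.76 to 34.5%), against 34.7% of the 369 tRNA genes elsewhere, and 21 in Norm-Sen (61.8%, 43.6 to 77.8%), against 43.6% elsewhere. A peak in either library was present at 22, and in both at 5.

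**Figure D5:**
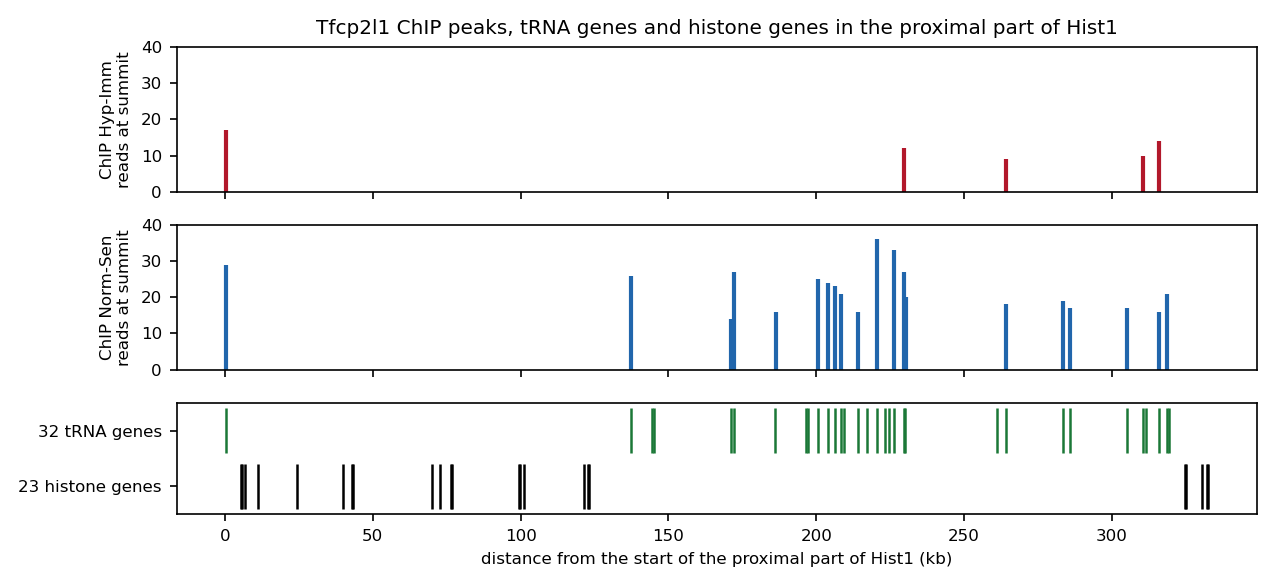
Reads at the summit of each Tfcp2l1 ChIP peak (y axis) in Hyp-Imm (upper) and Norm-Sen (middle), with the 32 tRNA genes and 23 histone genes (lower), along the proximal part of Hist1 (x axis, kb from its start). The 5 Hyp-Imm and 20 Norm-Sen peaks line up with tRNA genes, and most stand in the gap of 202 kb between the histone genes.

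The sequences of 5 of these tRNA genes show what lay under the peaks and what a gene without a peak looked like. Each is the gene in GRCm38.p6 as annotated by RefSeq, 5′ to 3′, with the letters GTTCNANNC in capitals, a form of the RNA polymerase III B box chosen after seeing the sequences. It was found in 92.1% of the 403 tRNA genes and in 29 of the 34 in the clusters.
n-TMcat7 (chr13:21710994-21711065, plus strand): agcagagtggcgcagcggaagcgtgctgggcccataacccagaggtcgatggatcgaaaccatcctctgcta
n-TMcat2 (chr13:21907111-21907182, plus strand): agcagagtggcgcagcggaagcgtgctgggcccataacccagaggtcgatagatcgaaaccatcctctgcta
n-TDgtc12 (chr13:21940319-21940390, minus strand): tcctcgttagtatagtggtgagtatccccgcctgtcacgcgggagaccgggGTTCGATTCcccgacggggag
n-TVcac8 (chr13:22026548-22026620, plus strand): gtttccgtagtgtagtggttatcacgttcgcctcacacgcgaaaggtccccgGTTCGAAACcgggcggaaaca
n-TLtaa2 (chr13:21848022-21848104, minus strand): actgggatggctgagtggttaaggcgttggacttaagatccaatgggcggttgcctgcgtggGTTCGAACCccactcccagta

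The 5 tRNA-Met genes of the clusters lack these letters and are otherwise almost the same. n-TMcat7, n-TMcat8, n-TMcat9 and n-TMcat10 are identical over 72 bases, and all 4 had a peak in Norm-Sen. n-TMcat2 matches them at 71 of 72 bases and had no peak in either library. n-TMcat7 had 17 reads in Hyp-Imm (9.90 to 27.2) and 29 in Norm-Sen (19.4 to 41.6), with fold 10.6 and 12.4. n-TMcat8 had 9 and 18 reads and n-TMcat9 10 and 16. n-TMcat10 had no Hyp-Imm peak and the largest Norm-Sen summit of the clusters, 36 reads (25.2 to 49.8). Of the words around these genes, including 200 bases on either side, 94.1% to 99.4% were unique. This share includes the flanks, whereas a 49-base word wholly inside any of the 4 identical genes occurs in all 4. Reads lying wholly inside these genes therefore cannot be placed with certainty between the copies. The summits at the 4 identical genes lay inside the gene, except that of n-TMcat8 in Norm-Sen.

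n-TDgtc12, a tRNA-Asp gene, was the only tRNA gene of the clusters with an ATAC peak in all 4 libraries, with a −log10 q of 2.89 in Hyp-Imm and 4.04 in Norm-Sen, and 3.55 in Hyp-Pro and 2.82 in Norm-Pro. It had a ChIP peak in both libraries, 12 reads in Hyp-Imm and 27 in Norm-Sen. Its sequence is identical to those of n-TDgtc11 and n-TDgtc13, so reads lying wholly inside these genes cannot be placed with certainty between them. n-TVcac8, a tRNA-Val gene, had 14 reads in Hyp-Imm and 16 in Norm-Sen, and was the only shared gene whose fold was higher in Hyp-Imm, at 9.16 against 6.20 in Norm-Sen. n-TRacg1, a tRNA-Arg gene, had a peak in Hyp-Imm alone, at 10 reads.

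The 16 genes with a peak in Norm-Sen alone were n-TLtaa2, n-TIaat10, n-TFgaa1, n-TItat14, n-TDgtc11, n-TLcaa2, n-TRtct3, n-TSaga5, n-TStga2, n-TMcat10, n-TSaga1, n-TSaga8, n-TSgct8, n-TQctg1, n-TVaac3 and n-TIaat7. The highest fold among them was 16.6 at n-TLtaa2 (26 reads), followed by 14.2 at n-TFgaa1 (27 reads) and 13.9 at n-TMcat10. By product, the Norm-Sen peaks covered 5 of 7 tRNA-Ser genes, 4 of 5 tRNA-Met, 3 of 4 tRNA-Ile and both tRNA-Leu and tRNA-Val genes, and none of the 2 tRNA-Lys or 2 tRNA-Thr genes. The limit on placing reads also holds among n-TSaga5, n-TSaga6 and n-TSaga8, which are identical, and among the identical n-TIaat7, n-TIaat10 and n-TIaat11. ATAC peaks on tRNA genes of the clusters were fewer, with 1 of 34 in Hyp-Imm and 1 in Norm-Sen. In Hyp-Pro there were 6 and in Norm-Pro 3. Of the 369 tRNA genes elsewhere, 9, 24, 25 and 30 had an ATAC peak in Hyp-Imm, Norm-Sen, Hyp-Pro and Norm-Pro. The exact interval of the cluster share held the share elsewhere in each library, in Hyp-Pro by a narrow margin. These counts thus do not set the cluster tRNA genes apart.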

How the data were processed

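The 6 libraries were taken as the authors deposited them, 1 narrowPeak list each, with peaks called per library. ATAC-seq reads were aligned by the authors with Bowtie2 to GRCm38 (mm10), pairs over 2 kb apart were removed, positions were shifted for Tn5, and MACS2 called peaks (FDR 0.05). In the case of ChIP, Bowtie and MACS2 are listed in the submitters' processing notes, and the build is that of the study's genome tracks. The deposited columns hold fold enrichment (a ratio), −log10 p-value and −log10 q-value, a score (not used) and the summit offset.

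Here, peaks were joined to GENCODE vM21 starts (1 kb), RefSeq tRNA genes (any overlap) and genome words of 49 bases. Summit reads were solved from fold and p within 0.002 on the −log10 scale. Clusters joined members up to 500 kb apart. Intervals are exact binomial (Clopper-Pearson) or Poisson, at 95%, for counting error only. Word counting was tested on simulated data. Python 3.11.15, numpy 2.4.6, pandas 2.3.3 and scipy 1.17.1 were used. The members and lists were chosen with earlier results of these data known. Named were the members open in all libraries or in none, up to 20 others by −log10 q, the testis genes, members and tRNA genes under ChIP peaks, and 6 regulators. Other genes were named after their values were seen.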

Additional observations from a re-analysis of the deposited data

Results flagged for a closer look

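By the labels, the change with passage ran in opposite directions at the 2 oxygen levels, and with 1 library per condition this difference was not tested. In 3% oxygen, Hyp-Imm had 7 open histone genes and Hyp-Pro 19, a difference of -12, while in 20% oxygen Norm-Sen had 23 and Norm-Pro 18, a difference of 5, so that the differences were -17 apart. The same contrast was -5 in H2A (Hyp-Imm 1, Hyp-Pro 3, Norm-Sen 7, Norm-Pro 4), -5 in H2B (1, 5, 6 and 5 in the same order) and -4 in H3 (1, 4, 4 and 3). In H1 (3, 2, 2 and 2) and H4 (1, 5, 4 and 4) the changes did not run in opposite directions. Head-to-head H2A and H2B genes share peaks, so these classes are not independent. In percentage points, Hyp-Imm minus Hyp-Pro was -17.9 for histone genes and -13.3 for all protein-coding genes. Norm-Sen minus Norm-Pro was 7.46 for histone genes and -1.71 for all protein-coding genes. The Hyp-Imm library had the lowest genome-wide background, 0.445 reads, and the part of depth in these differences was not tested. By the file names the opposite directions were not present: Hyp-Imm had 18 and Hyp-Pro 23, a difference of -5, and Norm-Sen had 7 and Norm-Pro 19, a difference of -12. The differences in that reading were -3 and -2 in H2A, -1 and -4 in H2B and -1 and -3 in H3, so the result rests on the labels.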

How the results depend on the processing

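No paired analysis was possible because each condition has 1 library. The share of open histone genes was below that of all protein-coding genes in 32 of 32 comparisons, 4 libraries under each of 8 alternatives, and giving each peak to its nearest member has no such share. These alternatives reuse the same libraries, and RefSeq starts were set beside the share at GENCODE starts. The 46 members under 80% unique words were not among them. Their shares were above those of less unique protein-coding genes in each library, a set not matched to them on uniqueness. Under a −log10 q of at least 5, Hyp-Imm, Norm-Sen, Hyp-Pro and Norm-Pro had 2, 7, 5 and 4 open histone genes, with 0 open in all 4. In none were 53 (79.1%), against 57.7% of all protein-coding genes. A 250 bp window gave 3 in Hyp-Imm, 12 in Hyp-Pro, 1 in all 4 and 35 in none (52.2%, against 47.1% of all protein-coding genes). Giving each peak to its nearest member left 1 in all 4. Among members with at least 80% unique words the counts were 3, 8, 9 and 7, with 1 open in all 4 and 5 in none, because fewer genes enter. Those 5 are 23.8%, against 33.7% of all protein-coding genes of the same kind. By the file names, Hyp-Imm had 18 and Norm-Sen 7. The other alternatives (equal peak numbers, summit in the window, every transcript start and, chosen after seeing the data, RefSeq starts and start codons) moved no such count by over 1.5 times. For ChIP, clusters of members at most 100 kb apart with nothing added held 0 peaks in Hyp-Imm and 0 in Norm-Sen, 0 of them on tRNA genes. With the 5 kb kept, an alternative chosen after seeing the data, they held 2 in Hyp-Imm and 2 in Norm-Sen, all on tRNA genes, so 4 and 19 peaks went with the tRNA stretch and the others with the 5 kb, and 50 kb added on either side gave Hyp-Imm 10 peaks, 10 of them on tRNA genes. Without tRNA peaks, histone genes with a ChIP peak numbered 0 in Hyp-Imm and 0 in Norm-Sen. Even with tRNA peaks kept, the shares of all protein-coding genes were 0.305% and 0.351%, so 0 of 67 does not set the histone genes apart. Depth limits the Hyp-Imm ATAC-seq library most, where a summit of 6 reads was the lowest at a member.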
